A study of Rattus norvegicus with 12 samples.

Results

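The genes described here changed in the rat ventricle after ischaemia and reperfusion by like amounts on both days studied. Expression was measured on 12 arrays, 1 per rat, which are all arrays of the series. IR stands for ischaemia and reperfusion: the LAD, the branch of the left coronary artery that feeds the anterior ventricular wall, had been occluded for 30 min before flow returned, and tissue was collected 2 d or 7 d later. Sham rats had the surgery without the occlusion and were sampled on the same days as controls. There were 3 rats in each combination of surgery and day, so that 6 IR arrays were compared with 6 sham arrays, each IR group with the sham group of its own day. The labels name the tissue as rat heart, and for 1 rat as ventricle, and give no strain, sex, age or genotype. They do not say which part of the ventricle was taken, so that the share of each sample that came from the ischaemic zone is unknown, and p-values measure the spread between these rats.

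Each gene has a shared change, the difference between IR and sham on the log2(signal + 195) scale averaged over both days, with its standard error (SE), and a change at each day alone. A gene was called where the Benjamini-Hochberg adjusted p of limma's test of the shared change was under 0.05 over the 10527 probe sets tested, which lay above the 40th percentile of their array in at least 3 arrays. A called change was of like size where both days had the same sign and the smaller of the changes was at least 0.67 of the larger. Of the 7720 genes tested, 1816 were called, and 911 of these, 478 higher and 433 lower, were of like size. These 911 genes are the ones described, with the other called genes only for contrast.

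After a coronary artery is reopened, the muscle that died is cleared by white blood cells, above all monocytes and the macrophages they become. Fibroblasts divide, turn into contractile myofibroblasts and fill the gap with a fibronectin- and tenascin-rich matrix that collagen later replaces. The surviving cardiomyocytes live mainly on fatty acids burned in mitochondria, which fill much of the cell, and they hand the energy to the contractile proteins through creatine kinase. In bulk tissue, fewer cells of a type and less RNA per cell cannot be told apart, and this holds for every change below.

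The samples carried the heart's markers. All 16 cardiomyocyte markers on the array passed the filter on low signal, with a summed signal of 678522 to 760429 on the 2 d sham arrays. The 8 atrial markers tested summed to between 39397 and 93630.1 over all arrays. 2 arrays stood apart from their groups. On the first principal component, which carried 39% of the variance, replicate 69 of the 2 d IR group had a score of -18.3, where replicates 73 and 76 had 4.11 and -0.18, and fell on the side of the 7 d IR arrays (-31.73 to -20.05). Replicate 82 of the 7 d sham group had a score of 23.62, where replicates 80 and 81 had 1.06 and 1.14, and fell among the 2 d sham arrays (17.65 to 25.28). Counts that lead a paragraph are therefore also given without these arrays. The ratio of 3′ to 5′ probe sets of beta-actin, a sign of RNA breakdown and labelling, differed between IR and sham arrays by -0.18 (log2; exact permutation test within days, 2-sided, p = 0.085), with means of 0.24 and 0.20 at 2 d and of 0.18 and 0.58 at 7 d. Those of GAPDH and hexokinase differed by -0.011 and -0.026 (exact permutation tests, p = 0.82 and 0.92).

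The shared change was called for 23.5% of genes. 960 genes rose (12.4% of those tested) and 856 fell (11.1%), and over probe sets 2356 of 10527 (22.4%) were called, of which 53.8% were higher. The counts of each list below are to be read against the shares of genes, 12.4% higher, 11.1% lower and 23.5% in either direction. With each array centred on its median instead, which moved the median of all tested probe sets from 0.0055 to -0.059, 2418 probe sets were called, of which 39.0% were higher (942 against 1476 lower). The direction of change of the 1816 called genes was the same on both days for 1814. The call rests on the change averaged over both days, so that a gene with opposite signs could hardly be called. This share, and in part that of like size among called genes, was therefore set by the call. Changes of like size made up 11.8% of all tested genes (6.19% higher, 5.61% lower) and 50.2% of the called ones; over probe sets, 1206 (11.5%) met the rule. Among all tested genes, called or not, 24.2% met the size rule and 71.1% had the same sign on both days. Of the called genes that did not meet it, 643 had the larger change at 7 d and 260 at 2 d. Without replicate 69, 1616 probe sets were called and 674 were of like size; without replicate 82 the numbers were 1659 and 892, and without both 953 and 491.

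The size rule works on estimates, and its precision is limited by 3 rats per group. The median change of the 911 genes was 0.45 in size, and the median half-width of the 95% interval for the difference between the days was 0.48. For 538 of the 911 that half-width was larger than the change itself, so that a like estimate does not show that the days were alike. For 574 of them, 289 higher and 285 lower, the 3 IR arrays lay all on one side of the 3 sham arrays on both days, which held for 973 of all tested genes (12.6%). 36 of the 911 changed at least 2-fold: 35 rose, and 1, Tuba8, fell. Tested on each day alone, of the 1206 like-sized probe sets 108 were called on both days, 19 only at 2 d, 329 only at 7 d and 750 on neither. The test at 2 d alone called 260 probe sets (2.47%), of which 251 had the same sign at 7 d, and the test at 7 d alone called 1270 (12.1%), of which 1171 had the same sign at 2 d. Across all tested genes, the changes on both days correlated with a Pearson r of 0.59; the days share no arrays, but genes are not independent replicates.

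**Figure D1:**
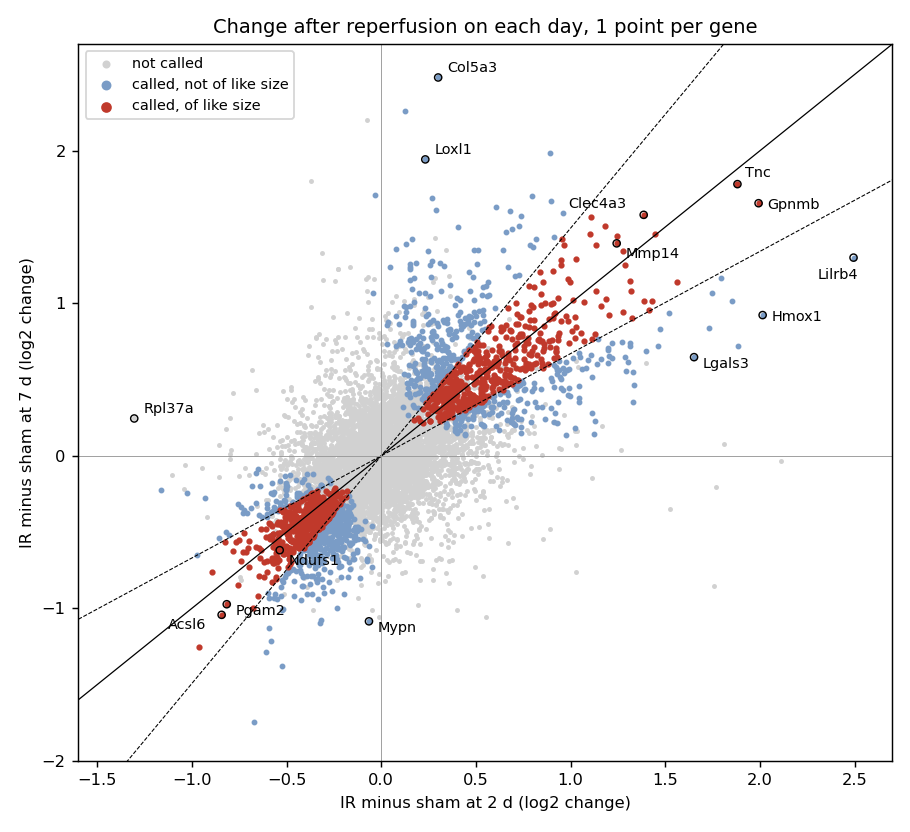
Change of each tested gene at 2 d (horizontal axis) and at 7 d (vertical axis), as IR minus sham in log2(signal + 195); red points are the 911 genes called and of like size, blue points the other called genes and grey points genes that were not called. The solid line marks equal change and the dashed lines the limits of the size rule; Tnc and Gpnmb lie farthest along the diagonal among the increases, while Col5a3 lies far above it.

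The largest like-sized increases came from a wound matrix protein and from genes of macrophages. Tnc encodes tenascin-C, a matrix protein that adult heart holds little of and wounds make. Its signals at 2 d were 377, 727 and 518 in sham and 2405, 2837 and 2192 in IR rats. At 7 d they were 1612, 390.5 and 333 in sham and 3144, 2656 and 2186 in IR rats. All 6 IR arrays lay above all 6 sham arrays, with replicate 80 the highest of the sham. The shared change was 1.83 ± 0.24 (SE, n = 6 against 6; adjusted p = 0.000801), 3.56-fold higher, with 1.88 at 2 d and 1.78 at 7 d, and a 7 d minus 2 d difference whose 95% interval ran from -1.14 to 0.94.

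Gpnmb, a membrane glycoprotein of macrophages that take up debris, was the second. At 2 d its signal was 4067, 4934 and 5346 in sham and 29089.6, 12075 and 21058 in IR rats. At 7 d it was 4199, 2928 and 1536 in sham and 8402, 6002 and 13751 in IR rats. The groups did not overlap on either day, although both the IR and the sham signals were lower at 7 d than at 2 d in their means. The shared change was 1.82 ± 0.24 (adjusted p = 0.000954), with 1.99 at 2 d and 1.66 at 7 d.

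**Figure D2:**
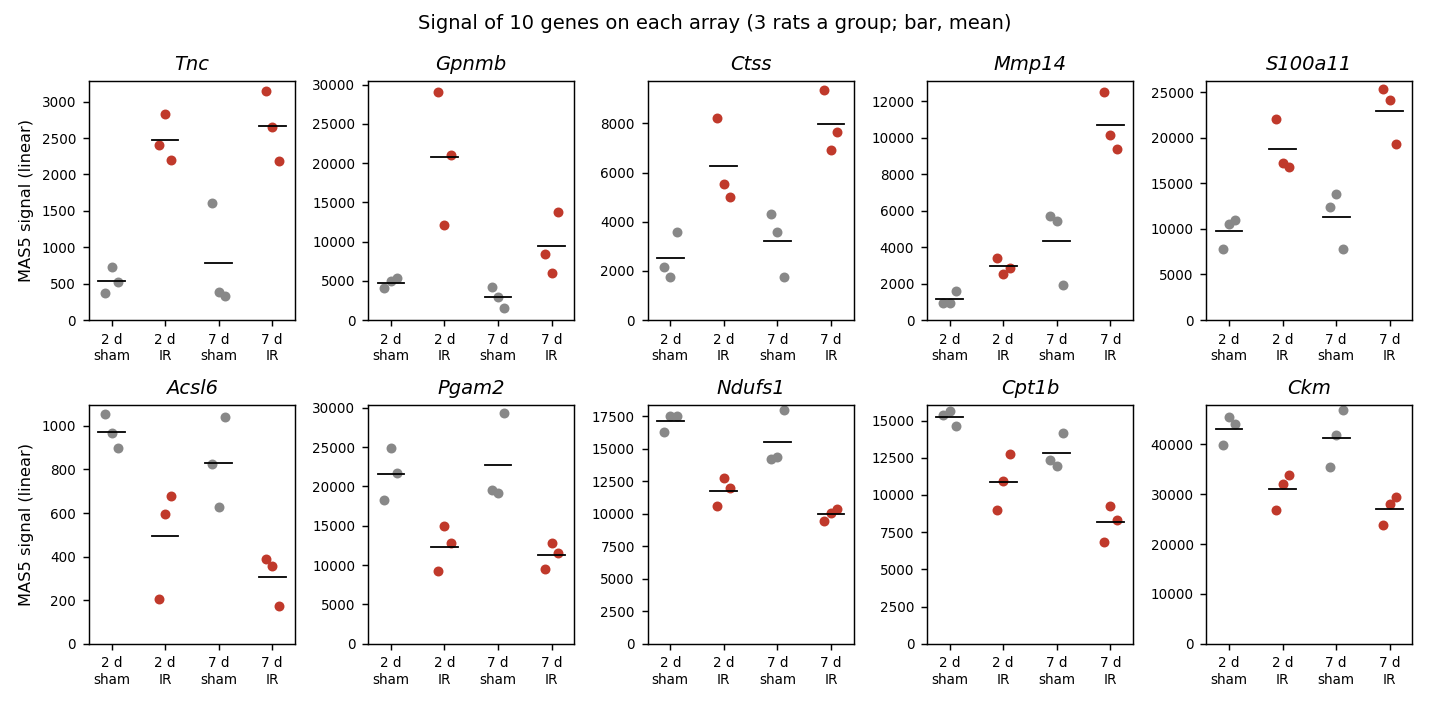
Deposited MAS5 signal (linear scale, vertical axis from 0) of 10 like-sized genes on each of the 12 arrays; grey points are sham rats, red points IR rats and bars the group means of 3 rats. On both days the IR points of each gene lie on one side of the sham points, above them in the top row and below them in the bottom row.

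Genes of macrophages and monocytes rose almost as a whole. Of 23 markers tested, 22 were called higher and 0 lower, against 12.4% of all genes, and 14 of the 22 were of like size. The median member changed by 1.02, with medians of 1.03 at 2 d and 0.95 at 7 d, against 0.0085 over all tested genes. The summed signal of the 23 ran from 61497.4 to 86437 on 2 d sham, 132949 to 211639 on 2 d IR, 58703 to 99940.0 on 7 d sham and 150688 to 169231 on 7 d IR arrays, with no overlap between IR and sham. The list's mean level was highest on replicate 69 (1.57 above the 2 d sham mean, against 0.76 and 1.00 for replicates 73 and 76) and lowest on replicate 82 (-0.48 from the 7 d sham mean, against 0.28 and 0.20 for replicates 80 and 81). Without replicate 69, 21 of the 23 were called, without replicate 82 20, and without both 18. In the same order, 13, 10 and 13 were then of like size. This list and those below were written with earlier results of these data known, so that their shares describe the lists and are no test.

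Clec4a3, a C-type lectin receptor of myeloid cells, changed by 1.48 ± 0.22 (adjusted p = 0.00114). Its signals were 1116 to 3139 (median 2496) on IR and 414 to 1257 (median 644) on sham arrays. The lowest of the 6 IR signals, on 2 d replicate 73, was under the highest of the sham signals, on 7 d replicate 81, but within each day the groups were apart. Mpeg1, which encodes the pore-forming perforin-2 of phagocytes, changed by 1.34 ± 0.21 (adjusted p = 0.00163), with 1.24 at 2 d and 1.44 at 7 d. Another probe set of Mpeg1 was called higher but was not of like size, with 0.58 at 2 d and 1.17 at 7 d. Cd14, a co-receptor for bacterial lipopolysaccharide, changed by 1.23 ± 0.18 with 1.31 at 2 d and 1.14 at 7 d. Csf1r, the receptor for the growth factor on which macrophages depend, changed by 0.76 ± 0.13 with 0.80 at 2 d and 0.71 at 7 d. Not of like size were Lilrb4, an inhibitory receptor of myeloid cells, with 2.49 at 2 d and 1.30 at 7 d, and Lgals3, which encodes galectin-3, with 1.65 at 2 d and 0.65 at 7 d; both had the larger estimate at 2 d, but neither difference between the days was called.

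Lysosomal and phagocytic genes followed, with 21 of 37 tested members higher, 0 lower and 13 of like size (median 0.41, against 0.0085 over all genes; 18 higher without replicate 69, 19 without replicate 82 and 12 without both). In the same order, 10, 8 and 9 were then of like size. Ctsz, a lysosomal carboxypeptidase, changed by 1.35 ± 0.19 (adjusted p = 0.000982). Its signals ran from 2608 to 5719 (median 3399) on IR and 866 to 1818 (median 1297) on sham arrays, so that all 6 IR arrays were above all 6 sham arrays. Ctss encodes cathepsin S, a protease that trims the invariant chain of MHC class II molecules. Its signals at 2 d were 2172, 1755 and 3589.7 in sham and 8235, 5521 and 4988 in IR rats. The 7 d signals were 4314, 3579.9 and 1739 in sham and 9345, 6918 and 7669 in IR rats. The shared change was 1.31 ± 0.20 (adjusted p = 0.00147), with 1.28 at 2 d and 1.34 at 7 d and an interval of -0.82 to 0.94 for the difference. Tyrobp and Fcer1g, signalling adaptors of activating receptors on myeloid cells, changed by 1.11 ± 0.15 and 0.94 ± 0.12, each with an adjusted p of 0.000801. Ctss, Tyrobp and Fcer1g also stand in the macrophage list, so that these lists are not separate.

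The promoters of Ctss and Gpnmb are shown because, among the largest like-sized increases, these held a motif that was searched for. The matches were therefore fixed by the choice of promoters. Each is the RefSeq window of 250 bases before to 50 bases after the gene's start (build GRCr8), 5′ to 3′ on the gene's strand, with a motif match in capitals. Ctss lies on the plus strand (chr2:185775146-185775445) and holds GAGGAAGT, a form of the binding motif of PU.1, a transcription factor of myeloid cells, read here on the other strand and starting at -17 from the gene's start. Gpnmb lies on the plus strand (chr4:79340878-79341177) and holds TGANTCA, the motif of AP-1 factors, starting at -87.
Ctss: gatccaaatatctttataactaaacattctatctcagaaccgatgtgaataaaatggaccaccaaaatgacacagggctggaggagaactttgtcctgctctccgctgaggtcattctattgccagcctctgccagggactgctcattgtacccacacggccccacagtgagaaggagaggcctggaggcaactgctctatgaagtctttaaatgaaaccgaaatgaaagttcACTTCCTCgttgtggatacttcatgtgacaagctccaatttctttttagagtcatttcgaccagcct
Gpnmb: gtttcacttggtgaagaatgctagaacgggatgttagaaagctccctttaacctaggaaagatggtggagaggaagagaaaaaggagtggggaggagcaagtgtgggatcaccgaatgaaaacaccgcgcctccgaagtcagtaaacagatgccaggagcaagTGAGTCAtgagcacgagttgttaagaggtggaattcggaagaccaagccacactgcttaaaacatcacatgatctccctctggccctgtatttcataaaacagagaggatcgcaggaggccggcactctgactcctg
Searched on both strands, GAGGAAGT stood in 162 of 6456 promoters of tested genes (2.51%), in 2 of 16 promoters of called macrophage genes and in 12 of 398 of the like-sized increases (3.02%). TGANTCA stood in 4.91% of the promoters of tested genes and in 4.77% of those of the like-sized increases. The motifs do not overlap in these windows, and a match describes the letters only. Of the 15 largest like-sized increases, 12 had a promoter in the table, of which 1, Ctss, held the first motif and 1, Gpnmb, the second.

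Antigen presentation genes were called higher for 5 of 13 tested members and lower for 0 (38.5% called, against 12.4% of all genes higher). All 5 were of like size, and 4 were called higher without replicate 69, without replicate 82 or without both. Beside Ctss they included RT1-DMa, part of the molecule that loads peptides onto MHC class II, which changed by 0.86 ± 0.17 with 0.78 at 2 d and 0.95 at 7 d. RT1-Da and RT1-Db1, chains of a class II molecule itself, changed by 0.87 ± 0.17 and 0.62 ± 0.13. Both calls were lost when the day was left out of the model (adjusted p = 0.0584 and 0.0736). The brightest uncalled members were B2m, at -0.0039 ± 0.09, and Cd74, the invariant chain, at 0.04 ± 0.09 (adjusted p = 0.982 and 0.808). Of 30 tested cytokines, chemokines and receptors, 6 were called higher and 0 lower, and 4 were of like size (5 higher without both arrays). The share called higher lay above the 12.4% of all genes that were higher and under the 23.5% called in either direction. Ccl6, a chemokine of myeloid cells, led with 1.34 ± 0.19 (adjusted p = 0.00111). Its signals ran from 2453 to 8477 (median 3576) on IR and 854 to 1989.5 (median 1697) on sham arrays, without overlap. Tnfrsf1a, the main receptor for tumour necrosis factor, changed by 0.69 ± 0.14 with 0.60 at 2 d and 0.77 at 7 d, and Il18, a cytokine matured by inflammasomes, was not of like size with 0.75 at 2 d and 0.48 at 7 d. Complement had 5 of 11 members higher, 0 lower and 0 of like size. Among 17 interferon-induced genes, 2 were higher and 0 lower, which is 11.8% of the list and near the 12.4% of all genes that were higher. Irf1, a transcription factor induced by interferons, was of like size with 0.40 ± 0.09. 

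Of 17 annexin and S100 genes tested, 10 were higher and 1 lower (64.7% called, against 23.5% of all genes), and 7 of the increases were of like size (median 0.60; 9 higher without replicate 69 or 82 and 8 without both). The like-sized count was 4 without replicate 69, 7 without replicate 82 and 5 without both. S100a11, a partner of annexins in membrane repair, had 2 d signals of 7752, 10523 and 10985 in sham and 22109, 17284 and 16795 in IR rats. Sham rats had 12409, 13871 and 7783 at 7 d, and IR rats 25349, 24121 and 19295. All 6 IR arrays lay above all 6 sham arrays; the shared change was 0.98 ± 0.14 (adjusted p = 0.000982), with 0.93 at 2 d and 1.03 at 7 d. S100a4, made by fibroblasts and leukocytes, changed by 0.93 ± 0.16, S100a6 by 0.82 ± 0.16, and S100a10, which binds annexin A2 at the cell surface, by 0.73 ± 0.13. Anxa1, whose protein dampens neutrophil entry, was not of like size with 0.70 at 2 d and 1.18 at 7 d.

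Cytoskeletal and motility genes rose in 32 of 48 tested members and fell in 2, and 17 of the increases and 1 of the decreases were of like size (median 0.50; 28 higher without replicate 69, 29 without replicate 82 and 21 without both). The like-sized share was 52.9% of the called members, near the 50.2% of all called genes. Without replicate 69, without replicate 82 and without both, 21, 10 and 11 were of like size. Cotl1, an actin-binding protein abundant in leukocytes, changed by 1.22 ± 0.22 with 1.43 at 2 d and 1.02 at 7 d. Arpc1b, a subunit of the complex that branches actin filaments, changed by 0.93 ± 0.13 with 1.05 at 2 d and 0.81 at 7 d, and Tubb2b, a beta-tubulin, by 0.80 ± 0.15. Plek, the pleckstrin of blood cells, was not of like size with 1.79 at 2 d and 1.16 at 7 d. Actn1, which crosslinks actin, lay just outside the size rule with 1.15 at 2 d and 0.77 at 7 d, and Kiaa0232 just inside it with -0.37 at 2 d and -0.25 at 7 d. At the threshold on the adjusted p, Rbm5, a splicing factor, lay just inside with a change of 0.22 ± 0.07 (adjusted p = 0.0499), and Foxo4, a transcription factor, just outside with -0.26 ± 0.09 (adjusted p = 0.0501). Tuba8, an alpha-tubulin of muscle and testis, moved the other way. Its signals at 2 d were 6473, 8497 and 5134 in sham and 2528, 2504 and 5487 in IR rats. At 7 d they were 4556, 8002 and 9499 in sham and 2680.0, 2631 and 3224 in IR rats. The groups were apart at 7 d and overlapped at 2 d through replicate 76; the shared change was -1.11 ± 0.20 (adjusted p = 0.00263), 2.16-fold lower, and it was picked out after its values were seen.

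Some matrix genes changed by like amounts on both days, while most of the called collagen and matrix genes were outside the size rule. Of 47 collagen and matrix genes tested, 30 were higher and 0 lower, but only 9 of the 30 were of like size; 19 had the larger change at 7 d and 2 at 2 d. The median change was 0.22 at 2 d and 0.84 at 7 d. Without replicate 69, 25 were called; without replicate 82, 20; without both, 17. In the same order, 4, 10 and 9 were then of like size. Postn encodes periostin, a matrix protein of activated fibroblasts. Its 2 d signals were 2068, 2492 and 2664 in sham and 8133, 4304 and 4724 in IR rats. The 7 d signals were 11856, 13655 and 4519.5 in sham and 29201, 22747 and 20564 in IR rats. The IR arrays were higher on each day, yet the 7 d sham arrays overlapped the 2 d IR arrays, with replicate 82 the lowest of the 7 d sham. The shared change was 1.26 ± 0.22 (adjusted p = 0.0024) with 1.14 at 2 d and 1.38 at 7 d.

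Fn1, the fibronectin gene, changed by 1.20 ± 0.23 with 1.39 at 2 d and 1.01 at 7 d, and Col1a1, the main chain of type I collagen, by 1.10 ± 0.23 with 0.95 at 2 d and 1.25 at 7 d. Mmp14, a membrane-bound protease that cleaves collagen and activates other matrix proteases, had 2 d signals of 917, 949 and 1586 in sham and 3413, 2544 and 2847 in IR rats. Sham rats had 5718, 5406 and 1906 at 7 d, and IR rats 12519, 10168 and 9362. Its shared change was 1.32 ± 0.21 (adjusted p = 0.00175) with 1.24 at 2 d and 1.39 at 7 d, so that the change was of like size although the mean level was higher at 7 d than at 2 d in both IR and sham rats. Postn, Fn1, Col1a1 and Mmp14 all lost their calls when the day was left out of the model (adjusted p = 0.123, 0.0566, 0.137 and 0.0737). Sdc1, a cell-surface heparan sulphate proteoglycan, had the smallest adjusted p of the matrix genes named here, 0.000588, with a change of 1.20 ± 0.14 and 1.32 at 2 d and 1.08 at 7 d. Its signals ran from 1285 to 2103 (median 1673) on IR and 419 to 1046 (median 541) on sham arrays.

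Collagen-processing genes were higher for 12 of 14 tested members and lower for 0, with 3 of like size and 8 larger at 7 d (8 higher without both arrays). P4hb, a subunit of the enzyme that hydroxylates collagen, was of like size with 0.44 ± 0.10 and 0.40 at 2 d and 0.47 at 7 d. The crosslinking oxidases Lox, with 0.68 at 2 d and 1.60 at 7 d, and Loxl1, with 0.23 at 2 d and 1.94 at 7 d, were not. A dimmer probe set of Lox was called and of like size, however, with 1.07 at 2 d and 1.01 at 7 d. Among 17 matrix proteases and inhibitors, 10 were higher and 0 lower, and 3 were of like size (7 higher without replicate 69, 6 without replicate 82 and 5 without both). Plat, the tissue-type plasminogen activator, changed by 0.52 ± 0.10 with 0.51 at 2 d and 0.54 at 7 d. Of 38 genes of the TGF-beta, BMP and Wnt pathways, 10 were higher (26.3%) and 0 lower, and 4 were of like size. Over all genes, 12.4% were higher and 23.5% were called in either direction. Fibroblast and myofibroblast markers were higher for 15 of 25 tested members and lower for 0, with 3 of like size and 12 larger at 7 d (median 0.32 at 2 d and 1.15 at 7 d; 13 higher without replicate 69, without replicate 82 or without both). Acta2, the smooth muscle actin that marks myofibroblasts and vessel walls, was of like size: its signals ran from 7630.4 to 10751 (median 8221) on IR and 3476 to 7151 (median 4156) on sham arrays, and it changed by 0.82 ± 0.17 with 0.74 at 2 d and 0.91 at 7 d. Col5a3, a minor collagen chain, had the largest difference between days of the called increases, with 0.30 at 2 d and 2.48 at 7 d. Its 7 d IR signals were 1554, 1818 and 909.9, against 461, 53.6 and 135 on 2 d IR arrays. The call was lost without replicates 69 and 82 together. Its sham signals, 53.9 to 230.5, lay under 476, the median of the arrays' 40th percentiles. It thus passed the filter on low signal only through IR arrays. 

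**Figure D3:**
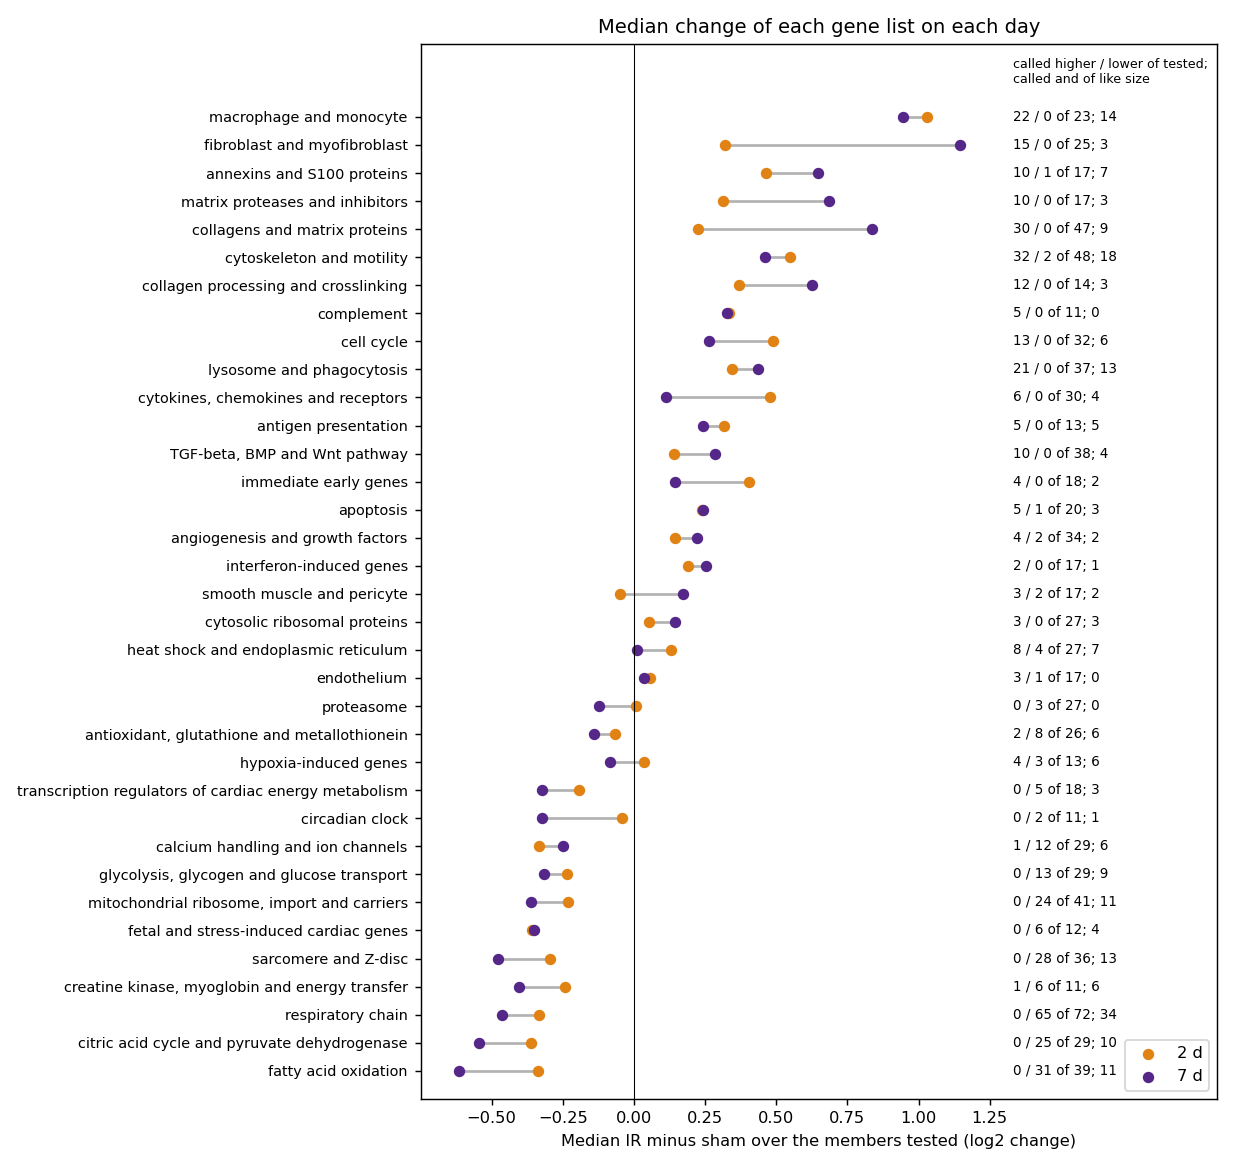
Median change (IR minus sham, log2, horizontal axis) over the tested members of each gene list at 2 d (orange) and 7 d (purple); the text at the right gives the members called higher and lower, the number tested, and the number called and of like size. The medians of the macrophage list lie close together at 1.03 and 0.95, while those of the fibroblast list lie at 0.32 and 1.15.

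The decreases included many genes of energy metabolism. Of 72 tested genes of the respiratory chain, the mitochondrial machinery that burns hydrogen carriers and makes ATP, 65 were lower and 0 higher, against 11.1% of all genes, and 34 of the 65 were of like size. That is 52.3% of the called members, near the 50.2% of all called genes. The median member changed by -0.39, with -0.33 at 2 d and -0.46 at 7 d. The other 31 called members all had the larger change at 7 d. Without replicate 69, 60 were still called but 8 were of like size, without replicate 82 60 and 43, and without both 48 and 22, so that the like size of this list rests in part on replicate 69, whose mean level was -0.51 from the 2 d sham mean, against -0.19 and -0.27 for replicates 73 and 76. Members of all 5 complexes were called lower: 32 of 34 tested members of complex I, 4 of 4 of complex II, 8 of 8 of complex III, 9 of 12 of complex IV and 12 of 14 of complex V, the ATP synthase, with median changes of -0.42, -0.35, -0.39, -0.37 and -0.35. Like-sized were 17, 3, 3, 3 and 8 of them.

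Ndufs1 encodes the largest iron-sulphur subunit of complex I. Its 2 d signals were 16256, 17539 and 17501 in sham and 10584, 12706 and 11972 in IR rats. At 7 d they were 14189.9, 14384 and 17945 in sham and 9466, 10079 and 10383 in IR rats. All 6 IR arrays lay below all 6 sham arrays, and the shared change was -0.58 ± 0.08 (adjusted p = 0.000982), with -0.54 at 2 d and -0.62 at 7 d and an interval of -0.42 to 0.26 for the difference. Ndufab1, an acyl carrier protein of complex I, changed by -0.55 ± 0.09 with -0.49 at 2 d and -0.60 at 7 d. Sdhb, the iron-sulphur subunit of complex II, changed by -0.55 ± 0.10 with -0.50 at 2 d and -0.60 at 7 d, and Atp5po, the stalk subunit of the ATP synthase, by -0.57 ± 0.10 with -0.49 at 2 d and -0.64 at 7 d. Cox5a, a subunit of complex IV, was not of like size, with -0.34 at 2 d and -0.83 at 7 d. Cox4i1, another, was not called and had a change of -0.23 ± 0.09 (adjusted p = 0.0866). Nfs1, the enzyme that supplies sulphur for iron-sulphur clusters, was among the largest decreases, at -0.84 ± 0.11 (adjusted p = 0.000801); its signals ran from 1494 to 3311 (median 1873) on IR and 2985 to 4803 (median 3586) on sham arrays.

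The promoter of Atp5f1e, a small subunit of the ATP synthase that was called lower and of like size (changes of -0.43 at 2 d and -0.52 at 7 d), is shown for its promoter, outside the rule for named genes, as 1 of those of the respiratory chain that hold AAGGTCA, the half-site bound by oestrogen-related and other nuclear receptors. It lies on the minus strand (chr3:183680123-183680422, GRCr8, RefSeq) and is written 5′ to 3′ on the gene's strand; the capitals mark the match, which is on the other strand and starts at -21 from the gene's start.
Atp5f1e: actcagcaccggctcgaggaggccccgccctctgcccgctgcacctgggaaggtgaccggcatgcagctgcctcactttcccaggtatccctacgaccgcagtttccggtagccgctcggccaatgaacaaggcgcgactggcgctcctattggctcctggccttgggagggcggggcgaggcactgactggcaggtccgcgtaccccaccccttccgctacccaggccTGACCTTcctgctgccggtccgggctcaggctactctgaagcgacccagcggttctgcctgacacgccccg
Searched on both strands of the same 300-base windows, AAGGTCA stood in 9 of 59 promoters of respiratory chain genes called lower (15.3%), in 10 of 65 of all tested members, called or not (15.4%), and in 179 of 6456 promoters of tested genes (2.77%). Like-sized decreases as a whole held it in 18 of 362 promoters (4.97%) and like-sized increases in 13 of 398 (3.27%). Fatty acid oxidation genes called lower held it in 1 of 26. Only 6 of the 65 promoters belong to members not called lower, so that the share among called members and the share among all members cover nearly the same promoters. None of the 13 promoters found for the 15 largest like-sized decreases held it.

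Fatty acid oxidation genes were lower for 31 of 39 tested members and higher for 0, against 11.1% of all genes lower. Of the 31, 11 were of like size (35.5%, under the 50.2% of all called genes) and 20 were larger at 7 d. The median was -0.34 at 2 d and -0.61 at 7 d. Without replicate 69, 27 were lower, without replicate 82 28, and without both 24. The like-sized count was 6 without replicate 69, 17 without replicate 82 and 7 without both. Acsl6, which couples long-chain fatty acids to coenzyme A, had the largest of the 15 decreases named by rule. Its 2 d signals were 1053, 969 and 900.5 in sham and 203, 597 and 679 in IR rats. The 7 d signals were 825, 627 and 1041 in sham and 389, 357 and 172 in IR rats. Replicate 69 was lowest at 2 d, and the groups were apart on both days, with a shared change of -0.94 ± 0.19 (adjusted p = 0.00374) and -0.84 at 2 d and -1.04 at 7 d. Acsl1, the main heart form of that enzyme family, changed by -0.63 ± 0.11 with -0.66 at 2 d and -0.60 at 7 d. Another probe set of Acsl1 was called lower but was not of like size, with -0.53 at 2 d and -0.34 at 7 d. Cpt1b, the muscle form of the gatekeeper that admits fatty acids to mitochondria, had 2 d signals of 15374, 15626 and 14626 in sham and 8969, 10967 and 12765 in IR rats. Sham rats had 12375, 11947 and 14176 at 7 d, and IR rats 6855, 9285 and 8335. Every IR array was below every sham array of its day, and the shared change was -0.57 ± 0.10 (adjusted p = 0.00217) with -0.49 at 2 d and -0.65 at 7 d. Acot13, a mitochondrial thioesterase that splits acyl-CoA, changed by -0.68 ± 0.11 with -0.56 at 2 d and -0.80 at 7 d. Cd36, the fatty acid transporter of the cell surface, was not called, at -0.20 ± 0.10 (adjusted p = 0.178).

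The citric acid cycle and pyruvate dehydrogenase list was lower for 25 of 29 tested members and higher for 0, with 10 of like size (median -0.36 at 2 d and -0.54 at 7 d; 22 lower without replicate 69, 24 without replicate 82 and 17 without both). The like-sized count was 3 without replicate 69, 17 without replicate 82 and 8 without both. Ogdh, part of the 2-oxoglutarate dehydrogenase of the cycle, changed by -0.61 ± 0.11 with -0.49 at 2 d and -0.73 at 7 d. Pdp1, the phosphatase that switches pyruvate dehydrogenase on, changed by -0.62 ± 0.09 with -0.57 at 2 d and -0.67 at 7 d. Mdh2, the mitochondrial malate dehydrogenase, was not of like size, with -0.20 at 2 d and -0.60 at 7 d. Mitochondrial ribosome, import and carrier genes were lower for 24 of 41 tested members and higher for 0, with 11 of like size (20 lower without replicate 69 or replicate 82 and 13 without both). Of like size were 6 without replicate 69, 13 without replicate 82 and 6 without both. Timm17a, part of the inner membrane import channel, changed by -0.59 ± 0.10, and Slc25a20, the carrier that brings acylcarnitines into mitochondria, by -0.56 ± 0.11 with -0.58 at 2 d and -0.54 at 7 d.

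Of 29 tested genes of glycolysis, glycogen and glucose transport, 13 were lower (44.8%, against 11.1% of all genes) and 0 higher. Of the 13, 9 were of like size (69.2%, against 50.2% of all called genes). Without replicate 69 or replicate 82, 12 were lower, and without both 6. The like-sized count was 6 without replicate 69, 8 without replicate 82 and 5 without both. Pgam2 is the muscle form of phosphoglycerate mutase, a late step of glycolysis. Its 2 d signals were 18266, 24939.9 and 21664 in sham and 9279.5, 14935 and 12765 in IR rats. At 7 d they were 19509.5, 19165 and 29394 in sham and 9504, 12863 and 11577 in IR rats. All 6 IR arrays lay below all 6 sham arrays, and the shared change was -0.89 ± 0.13 (adjusted p = 0.00135), 1.86-fold lower, with -0.82 at 2 d and -0.97 at 7 d. Slc2a4, the insulin-sensitive glucose transporter GLUT4, changed by -0.65 ± 0.13 with -0.75 at 2 d and -0.55 at 7 d, Gys1, the muscle glycogen synthase, by -0.65 ± 0.11 with -0.61 at 2 d and -0.69 at 7 d, and Pfkm, the muscle phosphofructokinase, by -0.54 ± 0.09 with -0.52 at 2 d and -0.56 at 7 d. Other probe sets of Slc2a4 (-0.64 at 2 d, -0.34 at 7 d) and Pfkm (-0.73 and -0.41) were called lower but were not of like size. Gyg1, which primes glycogen, was not called, at -0.15 ± 0.09 (adjusted p = 0.244).

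Energy transfer genes fell in 6 of 11 tested members and rose in 1, with 6 of like size, and without both arrays 5 were lower and 0 higher. Of like size were 1 without replicate 69, 6 without replicate 82 and 2 without both. Ckm, the muscle creatine kinase, had 2 d signals of 39914, 45579 and 44080.3 in sham and 26902, 32133 and 33962 in IR rats. The 7 d signals were 35402, 41846 and 46831 in sham and 23773, 28099 and 29470.1 in IR rats. The groups were apart on both days, with a shared change of -0.54 ± 0.09 (adjusted p = 0.00166) and -0.48 at 2 d and -0.60 at 7 d. Slc25a4, the heart form of the carrier that exchanges ADP for ATP, changed by -0.41 ± 0.07 with -0.42 at 2 d and -0.40 at 7 d. Its shared change ran from -0.48 to -0.11 over the alternative processing settings, with a highest adjusted p of 0.05. The member that rose was Gatm, the first enzyme of creatine synthesis, at 0.44 ± 0.12, and its call was lost without both arrays. Adss1, the muscle enzyme that remakes AMP from IMP, changed by -0.80 ± 0.12 (adjusted p = 0.0012) with -0.76 at 2 d and -0.85 at 7 d. Bdh1, which oxidises the ketone body 3-hydroxybutyrate, changed by -0.66 ± 0.15; its other probe set gave -0.43 and was not called.

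**Figure D4:**
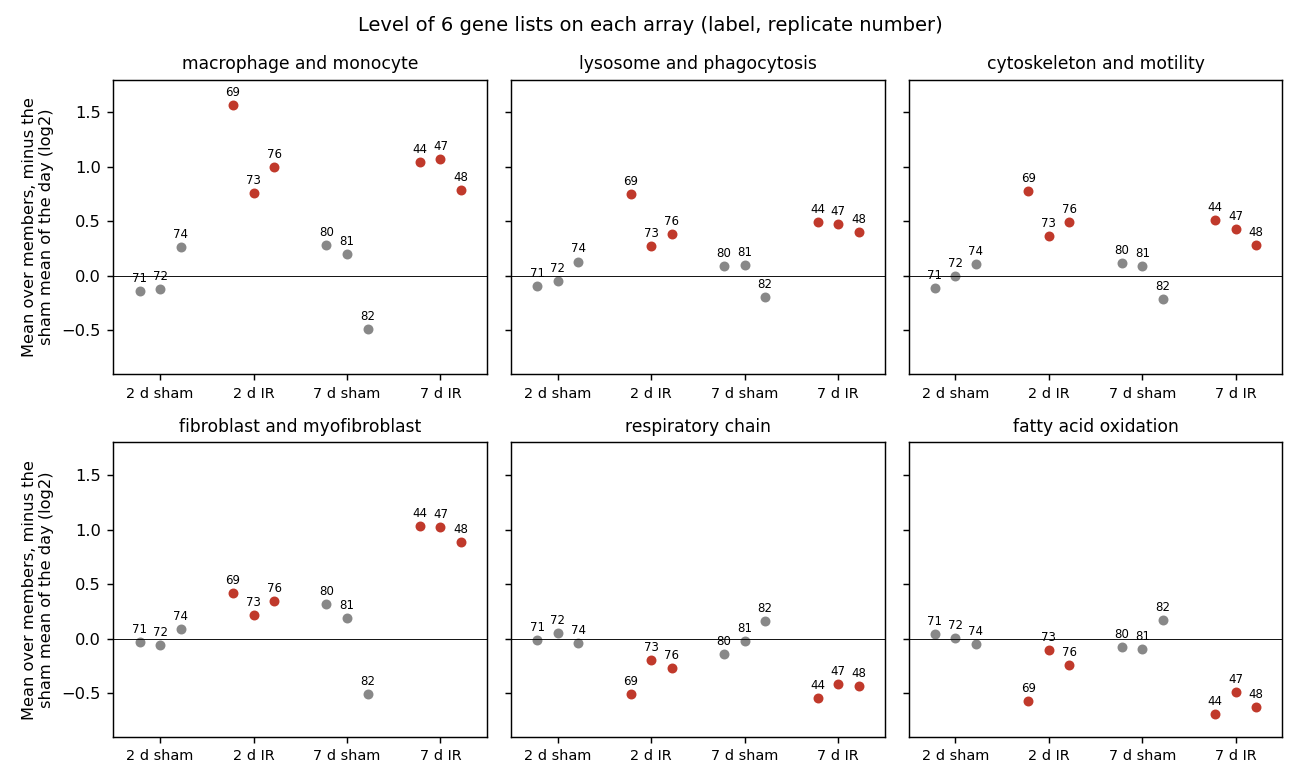
Mean level of 6 gene lists on each array, as log2 distance from the mean of the sham arrays of the same day; points are single rats, labelled with their replicate number, grey for sham and red for IR. 2 d IR replicate 69 lies farthest from the sham level among the 2 d IR arrays in every panel, and 7 d sham replicate 82 lies on the side away from the IR arrays.

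Of the 16 cardiomyocyte markers tested, 15 were lower and 0 higher, 8 of them of like size (median -0.42; 13 lower without replicate 69, 14 without replicate 82 and 9 without both). That is 53.3% of the called markers, near the 50.2% of all called genes. The like-sized count was 4 without replicate 69, 10 without replicate 82 and 3 without both. Of 36 sarcomere and Z-disc genes, 28 were lower and 0 higher, 13 of like size (46.4% of those called) and 15 larger at 7 d (23 lower without replicate 69 or replicate 82 and 14 without both). Of like size were 6 without replicate 69, 16 without replicate 82 and 5 without both. Casq2, which stores calcium in the sarcoplasmic reticulum, changed by -0.44 ± 0.09 with -0.46 at 2 d and -0.41 at 7 d. Its other probe set was called lower but was not of like size, with -0.41 at 2 d and -0.26 at 7 d. Myzap, a protein of the junctions between cardiomyocytes, changed by -0.57 ± 0.10 with -0.61 at 2 d and -0.54 at 7 d. Tnni3, the cardiac troponin I, changed by -0.43 ± 0.08 with -0.47 at 2 d and -0.38 at 7 d, but by -0.11 after quantile normalization (adjusted p = 0.069). Actn2, the alpha-actinin of the Z-disc, was not of like size, with -0.43 at 2 d and -0.75 at 7 d, nor was Myh6, the main myosin heavy chain of the rat ventricle, with -0.41 at 2 d and -0.79 at 7 d. A dimmer probe set of Myh6 was called and of like size, however, with -0.92 at 2 d and -0.96 at 7 d. Klhl31, a kelch protein of striated muscle, changed by -0.67 ± 0.11 with -0.72 at 2 d and -0.63 at 7 d. Atrial markers were lower for 4 of 8 tested members and higher for 0, with 0 of like size; the list's mean level, as log2 distance from the sham mean of the day, overlapped between IR (-0.54 to -0.31) and sham arrays (-0.40 to 0.31) at 2 d, and at 7 d lay lower on the IR arrays (-0.75 to -0.23) than on the sham arrays (-0.21 to 0.33), while its summed signal overlapped on both days. The part of atrial RNA in these changes was not tested.

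Calcium handling and ion channel genes were lower for 12 of 29 tested members and higher for 1 (44.8% called, against 23.5% of all genes), with 6 of like size. Without replicate 69, 8 were lower, without replicate 82 10, and without both 5. The like-sized count was 2 without replicate 69, 7 without replicate 82 and 1 without both. Kcnip2 encodes KChIP2, the auxiliary subunit of the channels that carry the transient outward potassium current. Its signals at 2 d were 12414, 14084 and 14561 in sham and 5863, 8392 and 10987 in IR rats. Sham rats had 15615, 15915 and 19425 at 7 d, and IR rats 8773, 11638 and 12439.8. The groups were apart on both days, with a change of -0.68 ± 0.13 (adjusted p = 0.00304) and -0.73 at 2 d and -0.63 at 7 d. Another probe set of Kcnip2 was called lower but was not of like size, with -0.51 at 2 d and -0.30 at 7 d. Scn7a, an atypical sodium channel, changed by -0.68 ± 0.13 with -0.56 at 2 d and -0.81 at 7 d, Adra1b, an adrenaline receptor, by -0.56 ± 0.10 with -0.64 at 2 d and -0.48 at 7 d, and Dhrs7c, an enzyme of the sarcoplasmic reticulum, by -0.70 ± 0.14 with -0.83 at 2 d and -0.57 at 7 d. Fxyd2, a regulatory subunit of the sodium pump, moved the other way, at 1.12 ± 0.18 with 0.95 at 2 d and 1.28 at 7 d. Of 18 transcription regulators of cardiac energy metabolism, 5 were lower (27.8%) and 0 higher, and 3 were of like size. Over all genes, 11.1% were lower and 23.5% were called in either direction. Esrrb, an oestrogen-related receptor, changed by -0.34 ± 0.09, and its call was lost without both arrays. Of 12 genes on the fetal and stress-induced cardiac list, 6 were lower and 0 higher, with 4 of like size. The list pools Atp2a2, the calcium pump of adult heart muscle, with genes such as Myh7 and Myl7, all called lower. The count is therefore not one of stress-induced genes alone. Atp2a2 changed by -0.38 ± 0.08, and its other probe sets, at -0.09 and -0.17, were not called.

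The stress lists were mixed. Of 13 hypoxia-induced genes, 4 were higher and 3 lower (53.8% called, against 23.5% of all genes), and 6 of the 7 were of like size. Ndrg1, a gene that low oxygen induces in many cells, rose by 0.62 ± 0.13 with 0.62 at 2 d and 0.62 at 7 d, while Bnip3, a mitochondrial cell death and mitophagy protein, fell with a change of -0.49 ± 0.09 and -0.42 at 2 d and -0.56 at 7 d. Vegfa, the main growth factor of blood vessels, was lower at -0.39 ± 0.11 with -0.39 at 2 d and -0.39 at 7 d; the call was lost without both arrays, and another probe set gave -0.21 and was not called. Hmox1, which breaks down haem, was not of like size with 2.01 at 2 d and 0.92 at 7 d, and its 2 d IR signals were 17004, 7157 and 7857, with replicate 69 the highest. Among 26 antioxidant genes, 2 were higher and 8 lower (38.5% called, against 23.5% of all genes), with 6 of like size. Prdx3, a mitochondrial peroxiredoxin, changed by -0.42 ± 0.09 with -0.36 at 2 d and -0.49 at 7 d, and Gsta4, which clears lipid aldehydes, by -0.42 ± 0.10 with -0.41 at 2 d and -0.43 at 7 d.

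Heat shock and endoplasmic reticulum genes were higher for 8 of 27 and lower for 4 (44.4% called, against 23.5% of all genes). Of like size were 7, and without both arrays 2 were higher and 2 lower. Serp1, a protein that stabilises secretory proteins as they enter the endoplasmic reticulum, was the like-sized member with the largest change. Its signals at 2 d were 3340.2, 3475 and 3812 in sham and 9038, 5230.5 and 5354 in IR rats. At 7 d they were 4416, 5237 and 3712 in sham and 8790.5, 6755 and 8740.5 in IR rats, with a shared change of 0.82 ± 0.13 (adjusted p = 0.00166) and 0.81 at 2 d and 0.84 at 7 d. Of 18 immediate early genes, 4 were higher (22.2%, against 12.4% of all genes higher and 23.5% called in either direction) and 0 lower. Egr1, a transcription factor induced within minutes by growth signals, was at 0.74 ± 0.17 with 0.82 at 2 d and 0.66 at 7 d. Cytosolic ribosomal proteins were higher for 3 of 27 tested members and lower for 0, all 3 of like size: Rpl3 at 0.51 ± 0.09, Rps3 at 0.43 ± 0.08 and Rpl14 at 0.40 ± 0.08. This is 11.1% of the list, near the 12.4% of all genes that were higher. Proteasome genes were lower for 3 of 27, the same 11.1% as of all genes, and higher for 0, with 0 of like size. 

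Cell cycle genes were higher for 13 of 32 (40.6%, against 12.4% of all genes) and lower for 0, with 6 of like size and 7 larger at 2 d. That count fell to 5 without replicate 69, to 7 without replicate 82 and to 1 without both. The next lists lay near or under the 23.5% of all genes called in either direction. Apoptosis genes were higher for 5 of 20 and lower for 1 (30.0% called), and angiogenesis and growth factor genes higher for 4 and lower for 2 of 34 (17.6%). Circadian clock genes were lower for 2 of 11 (18.2%, against 11.1% of all genes lower) and higher for 0. Endothelial markers were higher for 3 of 17 and lower for 1, with 0 of like size, and the list's mean lay between -0.13 and 0.086 of the sham mean of the day on all arrays. Smooth muscle and pericyte markers were higher for 3 of 17 and lower for 2.

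Markers of other cells that a heart sample could hold were measured as well. Of 7 neutrophil markers on the array, 3 passed the filter on low signal and 2 of these were higher; their mean level on 7 d sham replicate 81, 1.12 above the sham mean, lay within the range of the 7 d IR arrays (0.063 to 1.59). Lymphocyte markers were higher for 1 of 6 tested members, and red blood cell markers for 0 of 5. Lung markers were higher for 1 of 4, with a mean of 1.38 on 7 d IR replicate 44 and 0.011 to 0.32 on the other 7 d IR arrays. Mesothelial and epicardial markers were higher for 1 of 3, nerve and Schwann cell markers for 2 of 7, and skeletal muscle markers were lower for 2 of 7. Adipocyte markers were lower for 3 of 6 and higher for 1, with Plin4, a coat protein of lipid droplets, at -0.60 ± 0.13 and -0.48 at 2 d and -0.71 at 7 d. The part of these cells in the changes above was not tested.

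Several of the shorter lists kept few calls without replicates 69 and 82 together. Among the increases, 6 were then called of the TGF-beta, BMP and Wnt list, 2 of complement, 1 of the interferon-induced list, 2 of the immediate early and 1 of the apoptosis list. Among the decreases, 2 were called of the fetal and stress-induced cardiac list, 1 of the regulators of energy metabolism, 1 of the clock, 1 of the proteasome and 1 of the atrial markers. Hypoxia-induced genes then had 2 higher and 1 lower, antioxidant genes 1 and 3, and angiogenesis and growth factor genes 1 and 1. Endothelial, lymphocyte, lung and mesothelial markers had 0 called without both arrays. Without either one alone, 1 endothelial marker was called higher and 0 of the lymphocyte, lung and mesothelial markers; 1 smooth muscle and pericyte marker and 1 nerve and Schwann cell marker were called higher without either or both.

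A difference between the days was called for 1 gene of 7720 (0.0130%) and 1 probe set of 10527 (0.00950%), that of Rpl37a, while 576 genes had an unadjusted p under 0.05. Among the 905 called genes outside the size rule, 0 had a called difference between the days, and 166 had an unadjusted p under 0.05 for it by limma's test.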

How the data were processed

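The deposited table holds 1 linear intensity for each probe set and array. Per the submitters' processing notes it was made with MAS5, whose version is not given in the sources used here. Trimmed array means of 1500.4 to 1500.5 show that the deposited intensity values had been scaled per array. Groups came from the titles and descriptions of the samples, since the written design names the 7 d sham group in both sham places. Signals were taken as log2(signal + 195), 195 being the median of the arrays' 20th percentiles, so that fold changes of weak signals come out too small. The array has 15923 probe sets, of which 15866 remain without its 57 controls. The 10527 that exceeded the 40th percentile of an array on 3 or more arrays were tested. A gene low in sham or in IR rats could thus pass through the other arrays, as did Col5a3, Gpsm3, Plek and Cds1. The shared change came from a model of day and surgery in limma (version 3.58.1, R 4.3.3, with an intensity trend), and a model of the 4 groups gave the day-wise changes and their difference; tests were 2-sided, with Benjamini-Hochberg adjustment. Of the probe sets, 12789 had 1 gene symbol in GEO's platform annotation, 312 several and 2822 were unnamed; a gene was represented by its brightest tested probe set. No batch is named in the sources, and the number of arrays limits the precision.

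In simulated data with 10527 probe sets, the test of the shared change recovered 60 of 100 sets changed by 0.5 and 98 of 100 changed by 1, with 8 false calls. The simulated noise was independent between probe sets and arrays, with no day effect. These numbers therefore do not cover shifts of whole arrays, such as those of replicates 69 and 82. Genes were named from the 15 largest like-sized increases and decreases whose IR and sham arrays did not overlap on either day, from each list up to 4 such members, up to 2 called members not of like size and up to 2 uncalled ones, and from the neighbours of the thresholds; not all are printed. Members, lists and arrays doubted were chosen with earlier results of these data known. Alternatives covered the offset, the filter, scaling, array weights, the model, the size rule, other probe sets and each array left out. Promoters are RefSeq's (GRCr8).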

Additional observations from a re-analysis of the deposited data

Results flagged for a closer look

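The change after reperfusion of Rpl37a, a ribosomal protein gene, differed between the days by 1.55 (7 d minus 2 d, log2; limma's test of the difference, adjusted p = 0.0287), the only probe set for which that test passed. Its signals at 2 d were 39104, 52874 and 55717 in sham and 17841, 20270.3 and 20756 in IR rats. At 7 d they were 16521, 13612 and 13025 in sham and 18396, 14127 and 18857 in IR rats. The 2 d sham arrays stood above all 9 others, which lay between 13025 and 20756. The change was -1.30 at 2 d and 0.24 at 7 d, and the shared change of -0.53 ± 0.22 was not called (adjusted p = 0.1). No difference between the days was called, for this or any other probe set, when no filter was set on low signal or no intensity trend was fitted. When single arrays were left out, leaving out replicate 80 gave 6 called differences, replicate 71 gave 2, replicate 47 gave 1, and each of the other arrays gave 0.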

How the results depend on the processing

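Over the alternatives, leaving out 1 array in turn moved the number of probe sets called from 2356 to between 1616 and 2433, and those of like size from 1206 to between 674 (without replicate 69) and 1274. It moved the calls at 2 d alone from 260 to between 2 and 515, those at 7 d alone from 1270 to between 175 and 1463, and those of a difference between days from 1 to between 0 and 6. Without replicates 69 and 82 together, 953 were called, 491 were of like size, 70 were called at 2 d, 541 at 7 d and 0 for the difference, which was also 0 without the filter. A smallest ratio of 0.8 left 705 of like size. With each IR group set against the sham of the other day, 646 were of like size, of which 379 were among the 1206, and a difference between the days was called for 446 probe sets. With median centring 39.0% of the 2418 calls were higher, with quantile normalization 49.4% of 2230, against 53.8%. The fits on each day without single arrays and the list counts without arrays or with centring were chosen after seeing the data. No paired analysis was possible because the groups share no replicate numbers. The replicate numbers separate the days, with 69 to 76 at 2 d, and 44 to 48 (IR) and 80 to 82 (sham) at 7 d. At 7 d the IR and sham numbers also lie apart from each other, while at 2 d they are mixed. What the numbers stand for is not given, and a batch was not tested. No causes were tested, and 3 rats a group limit every estimate.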

Other observations

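Among the largest like-sized changes were genes that no list held. Gpsm3, a modulator of G protein signalling in leukocytes, had 2 d signals of 350.0, 264 and 167 in sham and 1237, 686 and 854 in IR rats, and 7 d signals of 228, 686 and 137 and 1224, 707 and 1101. Its groups were apart on both days, although sham replicate 81 came close to the lowest 7 d IR array, and it changed by 1.27 ± 0.22 (limma's test, adjusted p = 0.00217), with 1.29 at 2 d and 1.25 at 7 d. Of the sham arrays, only replicate 81 exceeded 476, the median of the arrays' 40th percentiles. Gpsm3 thus passed the filter on low signal through its IR arrays.

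Decreases outside the lists included the following genes. Mmachc, which processes vitamin B12 inside the cell, changed by -0.79 ± 0.13 (adjusted p = 0.00202), with -0.65 at 2 d and -0.92 at 7 d. Its signals were 479 to 897 (median 634) on IR and 959 to 1505 (median 1303) on sham arrays, with every IR array below every sham array. Cds1, which makes CDP-diacylglycerol for phospholipid synthesis, changed by -0.72 ± 0.18 with -0.65 at 2 d and -0.79 at 7 d, at signals of 91.5 to 654. Its IR signals, 91.5 to 343, lay under 476, so that Cds1 passed the filter on low signal only through sham arrays. Cmbl, a hydrolase, changed by -0.70 ± 0.11 with -0.58 at 2 d and -0.83 at 7 d.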
